A study of Homo sapiens with 10 samples.

Results

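The transcripts described here are those of the human mitochondrial genome, taken as every row of the count table that the annotation column places on chromosome MT. They make up 37 of 58735 rows, namely 13 messenger RNAs (mRNAs), 2 ribosomal RNAs (rRNAs) and 22 transfer RNAs (tRNAs). The cells were CH157-MN, an established meningioma line. In the ADC group, 5 libraries came from cells given 100 nM of a humanised antibody against the somatostatin receptor SSTR2 that carries the tubulin poison MMAF, with harvest at day 3. In the PBS group, 5 libraries came from cells given phosphate-buffered saline, for which the labels name no harvest day. Both groups share the same line, the same selection of RNA on poly-T beads and the same genome build, hg38.

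The mitochondrial genome is a small circle that is copied and transcribed apart from the nucleus. A single polymerase, POLRMT, reads each strand into long precursors, and enzymes then cut these at the tRNAs that lie between most genes. Rows of a strand therefore largely start as one transcript, and their steady levels are set largely by how long each mature RNA lasts. The mRNAs encode core subunits of complexes I, III, IV and V of oxidative phosphorylation, which are built together with many nuclear subunits, while the rRNAs and tRNAs serve the translation of these mRNAs inside the organelle. Human mitochondrial mRNAs receive short poly(A) tails, with MT-ND6 as the known exception, so poly-T selection captures the set unevenly.

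Where the rows end bears on how they can be counted, so the ends of the 13 mRNAs come first. All sequences are from GENCODE release 29 transcripts on hg38, where all 37 rows had the same position and length as in the table. Each line gives the last 24 bases, 5′ to 3′, in capitals the stop codon or the part of it that the gene encodes. The rows of 6 mRNAs end before the stop codon is complete, 5 of them in T and 1 in TA, and the tail that is added to the RNA supplies the missing bases.
MT-ND1: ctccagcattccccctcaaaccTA
MT-ND2: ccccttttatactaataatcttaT
MT-CO1: gaacccgtatacataaaatctAGA
MT-CO2: atagggcccgtatttaccctaTAG
MT-ATP8: cattcattgcccccacaatccTAG
MT-ATP6: ctctacctgcacgacaacacaTAA
MT-CO3: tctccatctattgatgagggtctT
MT-ND3: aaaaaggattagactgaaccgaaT
MT-ND4L: aacctaaacctactccaatgcTAA
MT-ND4: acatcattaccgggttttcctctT
MT-ND5: ctaaccctactcctaatcacaTAA
MT-ND6: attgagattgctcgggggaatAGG
MT-CYB: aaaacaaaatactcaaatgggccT

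Some neighbouring rows also share bases. MT-ATP6 and MT-CO3 share 1 base, MT-TC and MT-TY share 1, and MT-TI and MT-TQ, on opposite strands, share 3. In 2 further pairs, bases are shared by reading frames that lie on the same mRNA. MT-ATP8 (MT:8366-8572, plus strand) shares its last 46 of 207 bases with MT-ATP6, shown in capitals, and MT-ND4L (MT:10470-10766, plus strand) shares its last 7 with MT-ND4. The 30 bases at the end of MT-ND4L are MT:10737-10766.
MT-ATP8: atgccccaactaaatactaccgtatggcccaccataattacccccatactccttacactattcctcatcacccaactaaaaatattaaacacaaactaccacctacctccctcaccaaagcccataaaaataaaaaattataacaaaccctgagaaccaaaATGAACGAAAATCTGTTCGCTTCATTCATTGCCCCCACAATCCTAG
MT-ND4L: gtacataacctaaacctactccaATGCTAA

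Total counts were 28638057 to 36463724 in ADC libraries and 28262162 to 34473795 in PBS libraries, so that 3 counts, the most that an observed 0 allows, are worth 0.0823 to 0.106 CPM, the unit for counts relative to library size. This limit covers counting error only. No batch is named in the labels, and they do not say that replicates were separate cultures, so p-values reflect differences among these libraries that may be technical alone. Of 10 meningioma markers 4 passed the filter on low counts. VIM averaged 3535 CPM in ADC and 3395 CPM in PBS cells, and CLDN11 364 CPM in ADC and 389 CPM in PBS cells. MUC1 was low, at 0.70 CPM in ADC and 0.35 CPM in PBS cells. SSTR2, the target of the conjugate, had 10 to 20 counts in ADC libraries and 3 to 22 counts in PBS libraries. PTGDS, PGR, DSP, CDH1, CDH11 and ALPL did not pass, with at most 15 counts in any library. Most of these markers thus had few or no counts. Markers of leukocytes and blood, 8 genes that a pure culture should lack, summed to 0.246 to 0.555 CPM in ADC and 0 to 0.588 CPM in PBS libraries.

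Mitochondrial transcripts took a similar part of the libraries in both groups, and the libraries of a group differed widely. They held 1.80%, 1.59%, 1.90%, 1.30% and 2.11% of counts in ADC libraries 1 to 5, against 2.63%, 1.82%, 2.03%, 1.19% and 1.31% in PBS libraries 1 to 5. The ADC values all lay inside the range of the PBS values. The mean was 1.74% ± 0.31 in ADC and 1.80% ± 0.58 in PBS libraries (SD, n = 5 each), a difference of -0.059 percentage points that ran from -0.210 to 0.150 when 1 library was left out. The positive end of that range came without PBS library 1, which had the highest share. If each count is a separate draw, each share is known to within 0.0054 percentage points (95% exact binomial interval). As 2 counts can come from 1 read pair, the interval may be wider, but counting error stays a small part of the spread. MALAT1 and NEAT1, RNAs kept in the nucleus, summed to 42.8 to 54.7 CPM in ADC and 45.4 to 72.3 CPM in PBS libraries, with the highest value in PBS library 1; their part in the mitochondrial share was not tested.

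**Figure D1:**
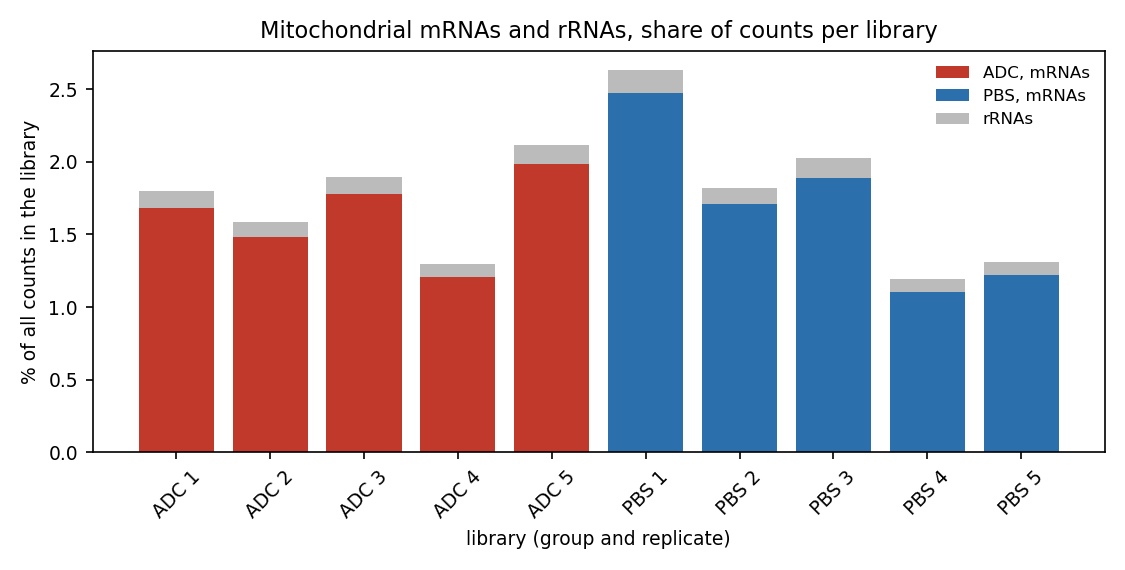
Bars give the percent of all counts of a library (vertical axis, from 0) taken by mitochondrial mRNAs (red in ADC, blue in PBS) and rRNAs (grey, stacked on top), for 5 ADC and 5 PBS libraries. The ADC bars reach 1.30% to 2.11% and fall within the PBS range of 1.19% to 2.63%.

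The mRNAs carried nearly all of these counts, 1.63% ± 0.30 of the library in ADC and 1.68% ± 0.55 in PBS cells (SD, n = 5 each). The rRNAs, which poly-T beads capture poorly, took 0.113% ± 0.016 in ADC and 0.117% ± 0.033 in PBS cells. No level of mitochondrial ribosomes can be read from shares in poly-T selected RNA.

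Almost no tRNA was counted. Of 22 tRNA rows 20 had 0 counts in all 10 libraries, and MT-TF, the tRNA for phenylalanine, had 0, 0, 5, 0 and 0 counts in ADC libraries, against 2, 1, 0, 0 and 2 in PBS libraries. MT-TP, the tRNA for proline, stood apart with 333, 343, 371, 213 and 272 counts in ADC libraries, against 358, 352, 282, 232 and 241 in PBS libraries. Its row is the last of the annotation on the minus strand, next to the gene-free control region from which both strands are transcribed. The whole row, MT:15956-16023 on the minus strand, is printed without capitals because no part of it is singled out.
MT-TP: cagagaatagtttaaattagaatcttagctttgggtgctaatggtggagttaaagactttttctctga

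Levels per length set the mRNAs in a steep order. The complex IV subunits led, with MT-CO1 at 3074 ± 569 CPM per kilobase in ADC and 3108 ± 1024 in PBS cells (SD, n = 5 each, as for all levels here). MT-CO3 had 2567 ± 385 in ADC and 2748 ± 786 in PBS cells, and MT-CO2 had 2478 ± 463 in ADC and 2623 ± 858 in PBS cells. The SDs of these 3 overlap, but they include the rise and fall between libraries that the mRNAs shared. They therefore do not show whether the order of the 3 held within each library.

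The middle of the order was formed by a proton-channel subunit of complex V and a core subunit of complex I. MT-ATP6 reached 1907 ± 430 CPM per kilobase in ADC and 2055 ± 680 in PBS cells, and MT-ND4 reached 1521 ± 301 in ADC and 1588 ± 568 in PBS cells. The other long complex I mRNAs and MT-CYB, the subunit of complex III, lay between 455 and 987 CPM per kilobase in ADC and between 421 and 1132 in PBS cells. At their low end, MT-ND5 had 455 ± 85 in ADC and 421 ± 138 in PBS cells, close to MT-ND6 at 485 ± 111 in ADC and 435 ± 134 in PBS cells. MT-ND6 is the one mRNA of the minus strand.

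MT-ATP8, a small subunit of complex V, was counted far below the other mRNAs, at 19.7 ± 7.8 CPM per kilobase in ADC and 20.3 ± 5.8 in PBS cells. MT-ATP6 had 263 to 427 counts for each count of MT-ATP8 in ADC libraries and 278 to 413 in PBS libraries, although both frames are read from one mRNA, so the MT-ATP8 row does not stand for the level of its RNA. MT-ND4 had 10.1 to 11.7 counts for each count of MT-ND4L in ADC libraries and 9.55 to 11.5 in PBS libraries. The part of overlapping bases and short rows in these ratios was not tested.

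The mitochondrial mRNAs varied far more between libraries of a group than nuclear genes of like level. Leaving out the thinly counted MT-ATP8, 12 mRNAs had within-group SDs of log2 CPM, pooled over the groups, of 0.34 to 0.42 with a median of 0.39. The 958 nuclear genes with at least 203 CPM, the lowest mean among those mRNAs, had a median SD of 0.048 and a highest SD of 0.20. None of them, 0 of 958, reached the lowest mitochondrial mRNA.

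**Figure D2:**
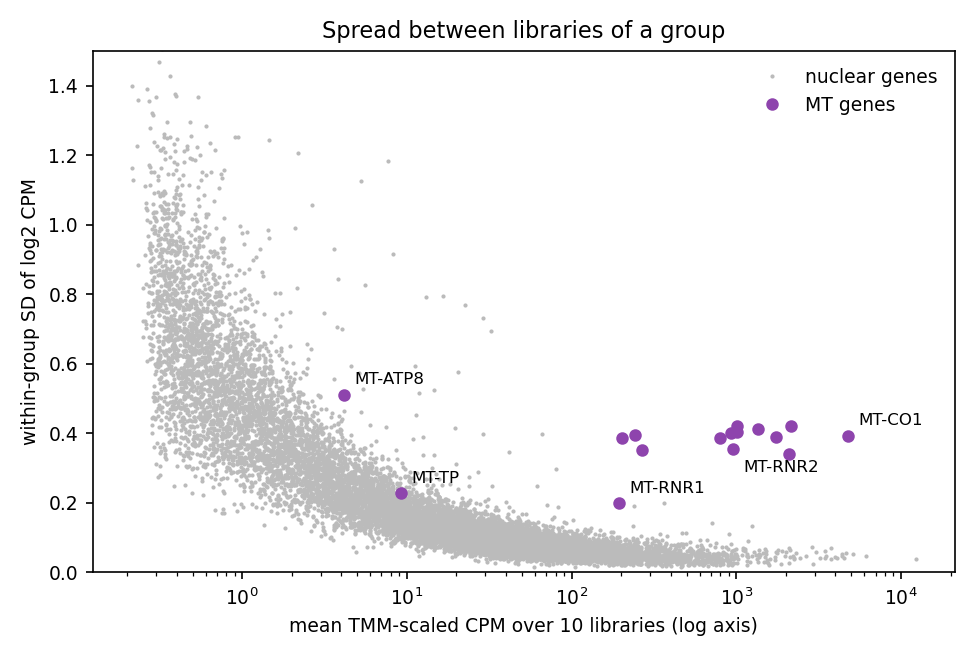
Each point is a gene, with its mean CPM over 10 libraries (horizontal, log axis) and its SD of log2 CPM within groups, pooled over ADC and PBS (vertical). Mitochondrial genes are purple and nuclear genes grey; 12 mitochondrial mRNAs lie at 0.34 to 0.42, above the nuclear genes of their level, and 5 nuclear points lie above the axis top of 1.5.

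The nuclear part of the same enzyme complexes was steady. The 81 nuclear subunits of oxidative phosphorylation summed to 8788 to 9460 CPM in ADC and 8686 to 9390 CPM in PBS libraries, so the highest library exceeded the lowest 1.08-fold in either group. The sum of mitochondrial transcripts differed 1.66-fold in ADC and 2.22-fold in PBS libraries. In bulk RNA, fewer mitochondria or cells and less RNA in each cannot be told apart.

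The mitochondrial mRNAs moved up and down together. In an edgeR fit across all 14504 tested genes that added the log2 summed mitochondrial mRNA level of each library beside treatment, 18 genes (0.124%) followed that level at adjusted p under 0.05, and 14 of them were mitochondrial. This fit was chosen after the spread had been seen. The mRNAs other than MT-ATP8 had slopes of 0.86 to 1.08, where 1 means movement in proportion, but each is part of the sum it is set against.

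The rRNAs and MT-TP are not in that sum. MT-RNR2, the large-subunit rRNA, had a slope of 0.90 (SE 0.04, edgeR adjusted p = 4.5e-18), whereas MT-RNR1, the small-subunit rRNA, had a slope of 0.42 (SE 0.07, edgeR adjusted p = 0.00063). Their 95% intervals, 0.81 to 0.98 for MT-RNR2 and 0.28 to 0.56 for MT-RNR1, did not overlap; the difference between the slopes was not tested. MT-RNR2 had 3.84 to 5.73 counts for each count of MT-RNR1 in ADC libraries and 4.42 to 6.27 in PBS libraries. Its row is longer, at 1559 bases against 954. Per kilobase MT-RNR2 had 593 CPM in ADC and 637 CPM in PBS cells, against 207 in ADC and 198 in PBS cells for MT-RNR1. Both are cut from the same precursor, with MT-TV between them. MT-TP had a slope of 0.48 (SE 0.15, 95% interval 0.18 to 0.79) that was not called once adjusted over all tested genes (edgeR adjusted p = 0.87). Its unadjusted interval lay above 0 and overlapped that of MT-RNR1.

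Outside chromosome MT, 4 of 14488 tested genes followed the mitochondrial mRNA level. MTCO1P12, a nuclear copy of MT-CO1 on chromosome 1, did so with a slope of 1.04 (SE 0.11). It had 3.98 to 4.64 counts for every 1000 counts of MT-CO1 in ADC libraries and 3.86 to 4.23 in PBS libraries, a nearly fixed ratio, and its reads cannot be told apart from those of MT-CO1 by the counts. The others were the processed pseudogene AL450405.1 (slope 0.58, SE 0.10), the vesicle-trafficking gene CCZ1 (1.01, SE 0.20) and the proliferation marker MKI67, which ran the other way (-0.23, SE 0.05). CCZ1 has a near-identical copy, so its own counts are uncertain. These 3 were named after their values had been seen.

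Against this spread, the direct comparison of ADC with PBS called 1 mitochondrial gene. Of the 37 rows 16 passed the filter, namely 13 mRNAs, 2 rRNAs and MT-TP. The test asks whether each row's part of the library changed after the conjugate. By edgeR's quasi-likelihood test 1 of 16 was called, beside 20.8% of all 14504 tested genes. It was lower and 0 were higher, beside 10% of all tested genes called lower and 10.8% called higher. The median log2 fold change was -0.06 over the 16 and -0.00 over all tested genes.

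The gene called was MT-ND3, a small core subunit of complex I. It had 230.5, 229.5, 250.4, 202.5 and 280.4 CPM in ADC libraries 1 to 5, against 423.9, 317.9, 341.6, 208.8 and 201.6 CPM in PBS libraries 1 to 5. PBS library 4 fell among the ADC libraries and PBS library 5 was the lowest of all 10, so the groups overlapped. The log2 fold change was -0.32 (SE 0.12, 95% interval -0.57 to -0.08, edgeR adjusted p = 0.049), and without PBS library 1 it was -0.16 (edgeR adjusted p = 0.28). Leaving out any one of ADC libraries 1 to 4 or PBS libraries 1 to 3 ended the call, with edgeR adjusted p-values of 0.073 to 0.28. DESeq2 gave an adjusted p of 0.30 and limma-voom one of 0.12, so the call also rests on the tool.

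The other 15 did not pass. MT-ND2 had a log2 fold change of -0.27 (SE 0.13, edgeR adjusted p = 0.15) and MT-ND1 one of -0.20 (SE 0.13, edgeR adjusted p = 0.32), and at the other end MT-ND6 had 0.16 (SE 0.13, edgeR adjusted p = 0.45). MT-CO1, the most abundant, stood at -0.02 with a 95% interval of -0.28 to 0.25. In no row did the groups separate, 0 of 16, beside 14.2% of all tested genes whose ADC and PBS values did not overlap.

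The makeup of the mitochondrial mRNA pool was much tighter than its size, and it differed between the groups. Each mRNA was taken as a percent of the summed mitochondrial mRNA counts of its library, which removes the common rise and fall. MT-ND5 and MT-ND6, neighbours far along the genome, and the leading mRNA MT-CO1 held a larger part of the pool in ADC cells, and MT-ND1 and MT-ND2, the leading mRNAs of the plus strand after the rRNAs, held a smaller part. For these 5 of 13 the groups did not overlap. Set against the same sum, the groups did not overlap for 0.910% of all 14504 tested genes, most of which are nuclear and take on the spread of the sum.

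MT-ND5, a membrane subunit at the far end of the proton-pumping arm of complex I, made up 5.32%, 5.03%, 5.02%, 5.12% and 5.05% of the pool in ADC libraries 1 to 5, against 4.53%, 4.31%, 4.59%, 4.74% and 4.34% in PBS libraries 1 to 5. Every ADC value lay above every PBS value. The means were 5.11% ± 0.12 in ADC and 4.50% ± 0.18 in PBS cells (SD, n = 5 each), a ratio of 1.14.

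MT-ND6, read from the other strand, made up 1.57%, 1.53%, 1.60%, 1.47% and 1.65% in ADC libraries 1 to 5, against 1.34%, 1.30%, 1.34%, 1.46% and 1.35% in PBS libraries 1 to 5. The groups came close at 1.47% in ADC library 4 and 1.46% in PBS library 4 and did not overlap. On the minus strand MT-ND6 ends at base 14149, next to base 14148, where MT-ND5 ends on the plus strand. The genes thus meet tail to tail, and each RNA is known to run on into the opposite strand of the other. Whether the counting used strand is not given in the sources used here, so reads of these 2 rows cannot be told apart with certainty. MT-ND6 had 0.287 to 0.327 counts for each count of MT-ND5 in ADC libraries and 0.291 to 0.311 in PBS libraries.

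MT-CO1, the catalytic subunit of complex IV, made up 28.9%, 29.2%, 29.9%, 29.7% and 29.2% in ADC libraries 1 to 5, against 28.2%, 28.2%, 28.6%, 28.1% and 28.1% in PBS libraries 1 to 5. Its shift was small, with means of 29.4% ± 0.4 in ADC and 28.3% ± 0.2 in PBS cells (SD, n = 5 each), and the groups did not overlap.

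MT-ND2, a pumping subunit of complex I, made up 5.08%, 5.55%, 5.23%, 4.93% and 5.17% in ADC libraries 1 to 5, against 6.01%, 6.07%, 5.85%, 5.90% and 6.11% in PBS libraries 1 to 5. All ADC values lay below all PBS values. MT-ND1, which joins the membrane arm to the quinone site, made up 5.88%, 5.70%, 5.92%, 5.59% and 5.997% in ADC libraries 1 to 5, against 6.39%, 6.46%, 6.25%, 6.32% and 6.56% in PBS libraries 1 to 5. These groups did not overlap either. MT-ND5 had 0.905 to 1.05 counts for each count of MT-ND2 in ADC libraries and 0.709 to 0.804 in PBS libraries. This ratio does not use the sum of the pool, though the MT-ND5 row may hold reads of MT-ND6.

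MT-ND3 made up 1.496% ± 0.135 in ADC and 1.77% ± 0.10 in PBS cells (SD, n = 5 each), and only ADC library 4, at 1.71%, reached into the PBS range of 1.64% to 1.89%. The groups also overlapped for the 7 mRNAs not yet described. MT-CO2 held 10.5% ± 0.2 in ADC and 10.6% ± 0.1 in PBS cells, MT-ND4 13.0% ± 0.2 in ADC and 12.8% ± 0.4 in PBS cells, and MT-ND4L 1.23% ± 0.06 in ADC and 1.22% ± 0.08 in PBS cells. MT-ATP6 and MT-CO3 had 7.996% ± 0.324 and 12.5% ± 0.6 in ADC cells, against 8.26% ± 0.16 and 12.8% ± 0.6 in PBS cells. MT-CYB had 6.19% ± 0.16 in ADC and 5.94% ± 0.18 in PBS cells.

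**Figure D3:**
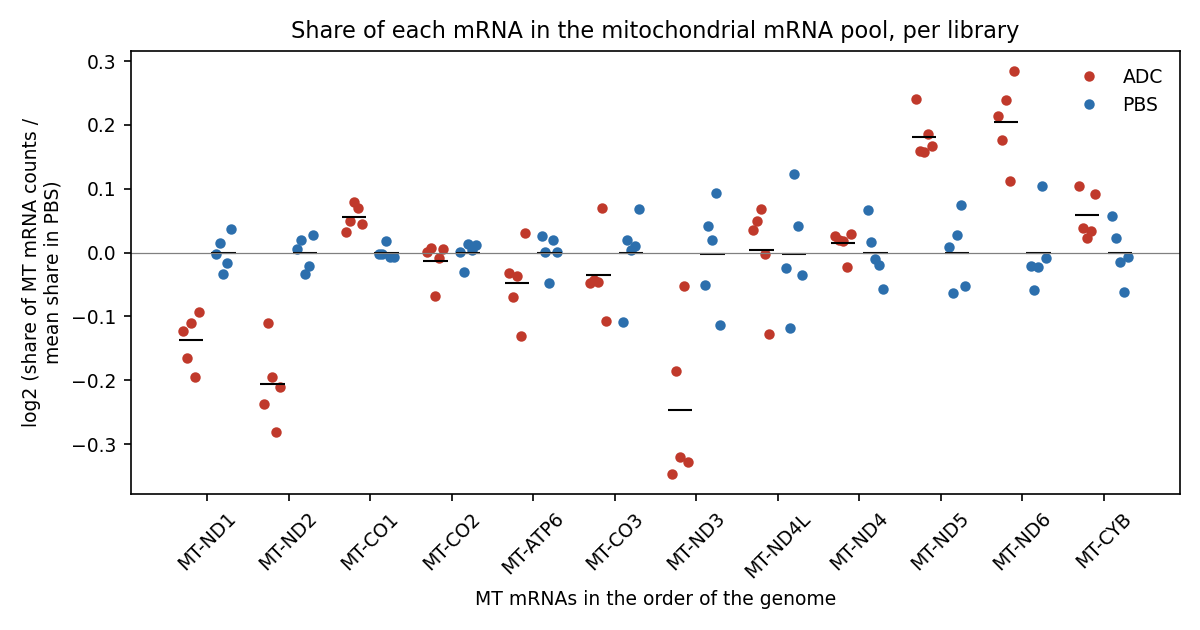
Points give, for 12 mitochondrial mRNAs in genome order, the log2 of the share of the mitochondrial mRNA pool in a library over the mean share in PBS libraries (red ADC on the left, blue PBS on the right, 5 libraries each; black lines are means; MT-ATP8 is left out). MT-ND1 and MT-ND2 sit lower and MT-CO1, MT-ND5 and MT-ND6 higher in ADC with no overlap, and MT-ND3 sits lower with 1 ADC library inside the PBS range.

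The same differences were put to a test with the fit that holds the mitochondrial mRNA level of each library equal, over all 14504 genes. As this fit was chosen after the shares had been seen on these samples, it is not independent evidence of their direction. At equal level 5 of the 16 mitochondrial genes were called, 2 higher and 3 lower, beside 20.8% of all tested genes called, 10.9% higher and 9.96% lower. MT-ND5 rose by 0.18 on the log2 scale (SE 0.03, edgeR adjusted p = 2.0e-05) and MT-ND6 by 0.21 (SE 0.04, edgeR adjusted p = 5.3e-05). MT-ND2 fell by 0.20 (SE 0.03, edgeR adjusted p = 2.6e-06), MT-ND3 fell by 0.25 (SE 0.04, edgeR adjusted p = 2.7e-05) and MT-ND1 fell by 0.14 (SE 0.03, edgeR adjusted p = 0.00031).

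These 5 were called in each of 14 other settings of that fit, among them every fit without 1 library. MT-CO1 stood at 0.06 (SE 0.02) and missed the threshold with an edgeR adjusted p of 0.057, and it was called in 4 of the 14, including the one that left each mRNA out of its own sum (edgeR adjusted p = 0.0084). MT-RNR1 stood at 0.09 (SE 0.05, edgeR adjusted p = 0.17), MT-RNR2 at -0.04 (SE 0.03, edgeR adjusted p = 0.30) and MT-TP at 0.04 (SE 0.10, edgeR adjusted p = 0.81). A fit that instead took the summed mitochondrial mRNA counts as library size for all genes called 0 of the 16, beside 0.490% of all tested genes. In that fit the median coefficient of variation between libraries, beyond counting noise, was 28.0% over all tested genes instead of 7.95%, and that of MT-CO1 was 27.1%. The sum is the pool itself, so a lower share of some mRNAs raises that of others by construction. Left without MT-CO1, MT-ND1 and MT-ND2, the pool still separated the groups for MT-ND5 and MT-ND6.

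**Figure D4:**
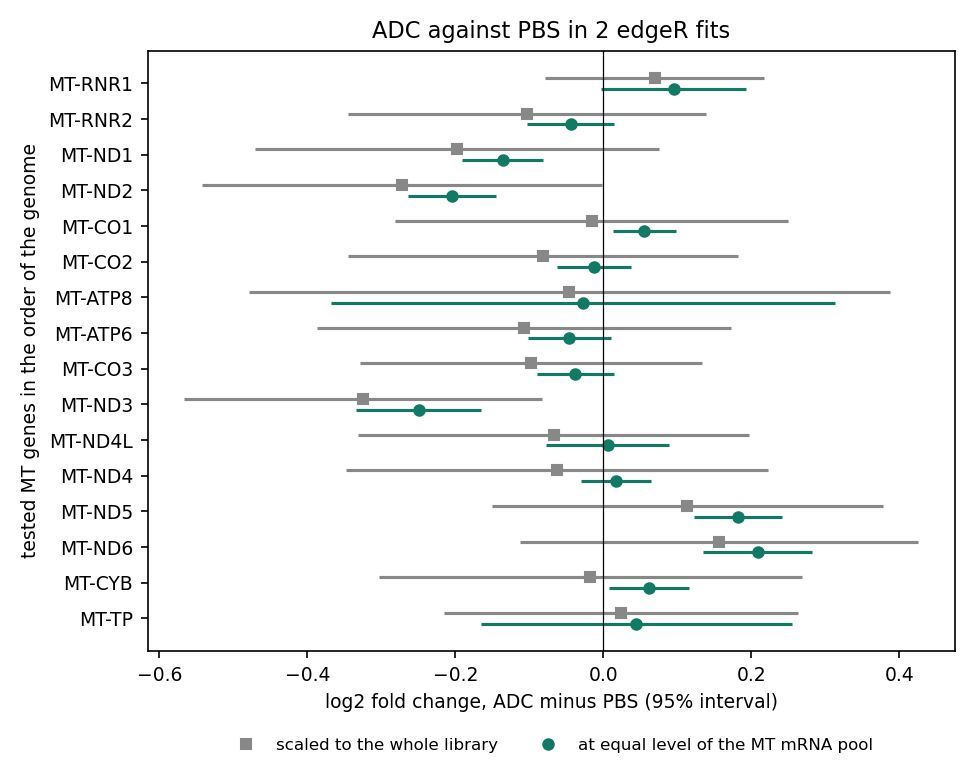
Log2 fold changes of ADC over PBS with 95% intervals for the 16 tested mitochondrial genes in genome order, scaled to the whole library (grey squares) and at equal level of the mitochondrial mRNA pool (green circles). Intervals narrow in the second fit for the mRNAs, and those of MT-ND1, MT-ND2 and MT-ND3 lie below 0 and those of MT-ND5 and MT-ND6 above it; those of MT-CO1 and MT-CYB also lie just above 0 but missed the threshold once adjusted (edgeR adjusted p = 0.057 and 0.099).

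The nuclear subunits of oxidative phosphorylation shifted little. Of 78 tested 7 rose and 0 fell, beside 10.8% of all tested genes higher and 10% lower, with a median log2 fold change of 0.04. Complex I had 3 of 36 higher, complex II 1 of 4, complex III 0 of 9, complex IV 3 of 11 and complex V 0 of 18. In complex IV, COX5B rose by 0.16 (SE 0.04, edgeR adjusted p = 0.0049), with 116.7 ± 4.6 CPM in ADC and 104.5 ± 5.7 CPM in PBS cells, beside COX4I1 at 0.13 and COX7B at 0.15. In complex I, NDUFS1, which carries iron-sulfur clusters, rose by 0.12 (SE 0.03, edgeR adjusted p = 0.010), with 183 ± 5 CPM in ADC and 168 ± 5 CPM in PBS cells, beside NDUFA1 at 0.18 and NDUFB6 at 0.16. SDHA, a subunit of complex II, which has no mitochondrial gene, rose by 0.10 (edgeR adjusted p = 0.049). NDUFA1 shares 44.5% of its exonic bases with genes of the opposite strand, so its counts are uncertain. The number called was 4, 11 and 3 without ADC library 3, 4 or 5, and 3 and 16 without PBS library 1 or 2.

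**Figure D5:**
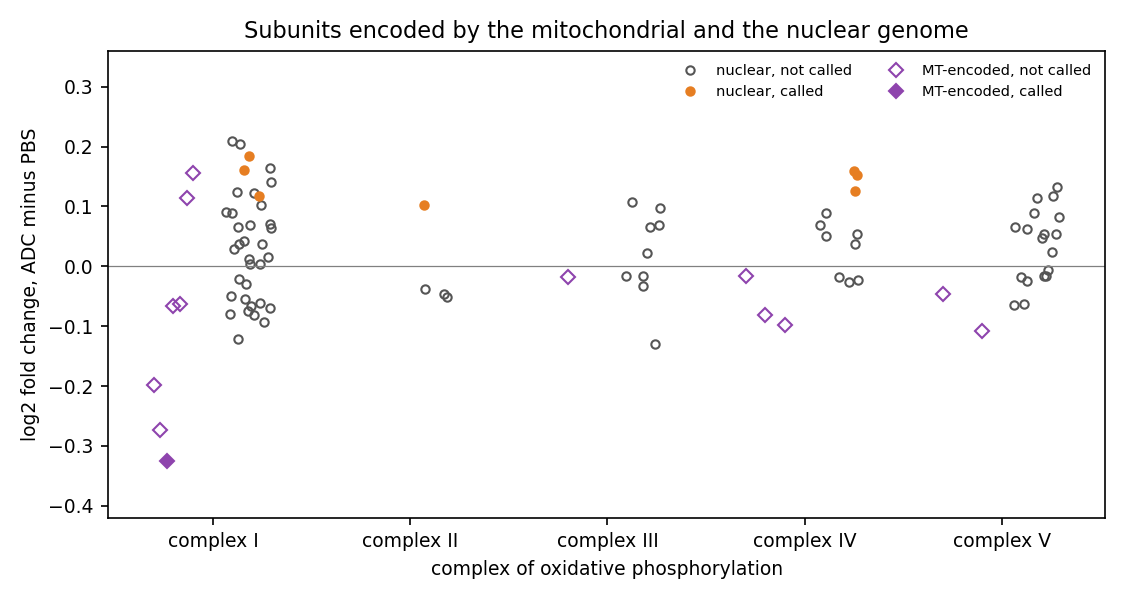
Log2 fold changes of ADC over PBS (vertical) by complex of oxidative phosphorylation, for subunits encoded by mitochondrial DNA (purple diamonds, left) and by the nucleus (circles, right); filled symbols passed edgeR's test at adjusted p under 0.05. Of 78 nuclear subunits 7 passed, all higher, and of the mitochondrial subunits MT-ND3 passed, lower.

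Among 42 nuclear factors that copy, transcribe, cut and stabilise mitochondrial nucleic acids, 1 rose and 7 fell, beside 10.8% of all tested genes higher and 10% lower. The number called was 5 without ADC library 1, 5 without PBS library 3 and 4 without PBS library 4. Of the transcription core, TFAM, which packs mitochondrial DNA and opens its promoters, fell by 0.10 (SE 0.03, edgeR adjusted p = 0.026), with 206 ± 5 CPM in ADC and 221 ± 5 CPM in PBS cells. The polymerase POLRMT stood at 0.06 (SE 0.05, edgeR adjusted p = 0.37), the initiation factor TFB2M at -0.14 (SE 0.06, edgeR adjusted p = 0.087) and the elongation factor TEFM at -0.03 (SE 0.10, edgeR adjusted p = 0.89). LRPPRC, which with SLIRP keeps the mRNAs stable, was at 458 ± 7 CPM in ADC and 482 ± 7 CPM in PBS cells, a change of -0.08 that missed the threshold (edgeR adjusted p = 0.061), and SLIRP stood at -0.05 (edgeR adjusted p = 0.48).

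The smallest adjusted p among these factors was that of PDE12, a nuclease that removes poly(A) tails in mitochondria, which fell by 0.18 (SE 0.03, edgeR adjusted p = 0.00024), with 149 ± 4 CPM in ADC and 168 ± 4 CPM in PBS cells. ELAC2, which cuts the 3′ ends of tRNAs out of the precursors, fell by 0.15 (SE 0.04, edgeR adjusted p = 0.0047). The other 4 that fell belong to the upkeep of mitochondrial DNA, namely the topoisomerase TOP3A by 0.18, the helicase TWNK by 0.14, the single-strand binding protein SSBP1 by 0.12 and the polymerase subunit POLG2 by 0.26. TK2, a kinase that supplies nucleotides, rose by 0.44 (SE 0.10, edgeR adjusted p = 0.0012), with 11.96 ± 0.64 CPM in ADC and 8.797 ± 1.001 CPM in PBS cells, and shares 21.9% of its exonic bases with the opposite strand.

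Proteins of the mitochondrial ribosome, which translates the mRNAs, had 3 of 77 higher and 9 lower, beside 10.8% of all tested genes higher and 10% lower, with a median of -0.04. MRPL3 fell by 0.18 (SE 0.03), MRPS25 by 0.23 (SE 0.04) and MRPS30 by 0.17 (SE 0.04), with edgeR adjusted p-values up to 0.0018. MRPS25 shares 22.2% of its exonic bases with genes of the opposite strand, so its counts are uncertain. MRPL34 rose by 0.25, MRPL22 by 0.22 and MRPS14 by 0.18, with edgeR adjusted p-values of 0.0036 to 0.048. Of 13 mitochondrial chaperones and proteases 1 was called, beside 20.8% of all tested genes, the chaperonin HSPD1, which fell by 0.16 (SE 0.03, edgeR adjusted p = 0.00013), with 1417 ± 61 CPM in ADC and 1585 ± 14 CPM in PBS cells; 2 were called without ADC library 4. Of 6 tested regulators of mitochondrial biogenesis 2 fell, beside 10% of all tested genes, the coactivators PPARGC1B by 0.26 and PPRC1 by 0.11.

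Nuclear copies of mitochondrial genes held few counts. Of 407 such rows 373 had 0 counts in all libraries and 6 passed the filter, with edgeR adjusted p-values of 0.63 to 0.91. All copies together took at most 0.0035% of the counts of a library, far below the mitochondrial rows themselves. MTCO1P12 led with 20.01 ± 4.02 CPM in ADC and 19.45 ± 6.64 CPM in PBS cells (SD, n = 5 each), followed by MTND2P28 with 2.24 ± 0.59 CPM in ADC and 2.16 ± 0.31 CPM in PBS cells.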

How the data were processed

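RNA of CH157-MN cells was selected on poly-T beads and sequenced, per the labels' protocols, in 5 ADC and 5 PBS libraries grouped by treatment label. The authors deposited whole-number counts per gene, not normalised. The submitters' processing notes name HISAT2, HISAT, TopHat2 and hg38; the counting tool and its strand setting are not stated in these sources. Counts of 2 to 21 were even in 65.4% to 67.3% of cases, so 2 counts can come from 1 read pair. Within-group pairs of libraries differed by more than counting error (chi-square divided by its degrees of freedom 5.18 to 16.5), so none was merged.

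Counts were TMM-scaled (factors 0.979 to 1.02), filtered with filterByExpr (minimum count 10, total 15) and tested with edgeR 4.0.16's quasi-likelihood test in R 4.3.3, two-sided, Benjamini-Hochberg adjusted over 14504 genes at 0.05, using all 10 libraries. Log2 fold changes are ADC minus PBS and levels are TMM-scaled CPM. SEs are the absolute log2 fold change over the square root of F. Shares, ratios and spreads were described without a test. Alternatives were DESeq2 1.42.0, limma-voom (limma 3.58.1), other scalings and filters, halved counts, a replicate block and leaving out each library; fits with the mitochondrial mRNA pool as library size or covariate, and pools without some mRNAs, were added after seeing the data. The edgeR fits were also run on simulated data, where all mitochondrial rows followed a shared level in proportion. MT-RNR1, with a slope of 0.42, did not do so in these libraries, and no result rests on that run. The members and gene lists were chosen with earlier results of these data known. Named genes are all mitochondrial rows, up to 3 called members per list and direction with the smallest adjusted p, POLRMT, TFAM, TFB2M, TEFM, LRPPRC and SLIRP, and the most abundant nuclear copies; other names were chosen after their values were seen.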

Additional observations from a re-analysis of the deposited data

Results flagged for a closer look

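The outlier check took shares of counts, CPM of the tested mitochondrial rows and shares of the mitochondrial mRNA pool. It looked for a library far from the other 4 of its group, in 66 groups of 5 libraries. Ratios and nuclear genes were not checked. The check marked 4 groups, all of them shares of the mitochondrial mRNA pool, where chance marks about 1 in 20. MT-CO1 made up 28.638% of the pool in PBS library 3, against 28.239% in the nearest PBS library. MT-CO2 made up 10.106% in ADC library 3, where the nearest ADC library had 10.538%, and 10.373% in PBS library 2, where the nearest PBS library had 10.608%. MT-ND4 made up 12.626% in ADC library 4, with 12.990% in the nearest ADC library.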

How the results depend on the processing

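The count of 1 mitochondrial gene called in the direct comparison depended on the processing. It was 0 with DESeq2, with limma-voom, with library size alone, with a filter at a mean of 1 CPM and with the summed mitochondrial mRNA counts as library size, 5 with that level as covariate, and 0 to 2 with 1 library left out. With no filter it was 8, where the median biological coefficient of variation of the mitochondrial genes was estimated at 8.78% instead of 14.5%. Replicate numbers did not pair the samples (same-number correlations of deviations -0.007 to 0.040); the replicate block gave 2 mitochondrial genes, 12 nuclear oxidative phosphorylation subunits and 3152 genes in all, against 1, 7 and 3018. Nuclear subunits called were 13 with DESeq2, 16 with library size alone, 12 with the filter at 1 CPM, 12 with halved counts and 3 to 16 with 1 library left out. Those called included 1 lower subunit with the replicate block, without ADC library 2 and without PBS library 1. Expression factors called were 8, but 4 with library size alone and 4 to 9 with 1 library left out. Chaperones and proteases called were 1, but 2 with DESeq2, library size alone, the filter at 1 CPM or halved counts, and 1 to 2 with 1 library left out. Ribosomal proteins stayed within 9 to 16.

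With the summed mitochondrial mRNA counts as library size, 71 genes were called, 66 higher and 5 lower (0.490% of those tested), and none of the 5 mitochondrial genes called at equal level was among them. Library size alone gave 1835 higher and 1067 lower genes, against 1562 higher and 1456 lower. Over all genes 2491 to 2980 were called with 1 library left out. The mRNAs whose shares did not overlap were 5 in the whole pool, 2 (MT-ND5 and MT-ND6) in the pool without MT-CO1, MT-ND1 and MT-ND2, and 5 to 6 with 1 library left out, as were 5 to 6 genes called at equal level. No called mitochondrial gene and no pool share without overlap changed direction in the alternatives run. Direction was not followed for single nuclear genes. The cause of these shifts was not tested. MT-ATP8 had 61 to 187 counts in a library and MT-TF 0 to 5, so counting error weighs most on these rows.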
